A study of Homo sapiens and Mus musculus with 18 samples.

Results

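The 18 genes described here make and degrade retinoic acid (RA). They were STRA6, RDH10, DHRS3, ALDH1A1, ALDH1A2, ALDH1A3, CYP26A1, CYP26B1 and CYP26C1 in human and the 9 mouse genes of the same names, chosen by symbol for their role in RA metabolism. They were 18 of 74630 genes counted, 9 of 44910 in human and 9 of 29720 in mouse. RNA-seq covered 18 samples in 9 groups of 2 biological replicates, which ran from pluripotent cells to gastruloids, aggregates of embryonic stem cells (ESCs) that form parts of the embryonic axis in culture. The human groups were naïve H9 ESCs (chemically reset, grown on mouse fibroblast feeders that were later removed by passaging), primed H9 ESCs, primed RUES2-GLR ESCs (a line that carries germ layer reporters), and RA-gastruloids made from RUES2-GLR ESCs and sampled at 24 h (early) and 120 h (late). Naïve H9 ESCs were held with LIF and inhibitors of MEK, tankyrase and protein kinase C, and primed human ESCs in StemFlex medium. RUES2-GLR cells received the WNT agonist CHIR99021, then CHIR99021 with RA, before aggregation. The aggregates were set up with CHIR99021 and no added RA, and Matrigel with a lower dose of RA was added later and kept to the late time point. All mouse groups came from the ESC line E14Tg2a and comprised naïve ESCs (held in MEK inhibitor, CHIR99021 and LIF), epiblast-like cells (EpiLCs, made with activin A and FGF), and gastruloids on day 3 (early) and day 6 (late). Mouse gastruloids were made from naïve ESCs, not from EpiLCs, with a pulse of CHIR99021 that ended at the early time point and without added RA. Species, culture and added RA thus changed together and cannot be told apart. Each group rests on 1 line, gastruloids of a sample were pooled, and in such bulk RNA fewer cells of a type and less RNA per cell cannot be told apart.

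RA is a ligand of nuclear receptors that patterns the axis of the vertebrate embryo. Cells take up retinol through STRA6, RDH10 oxidises it to retinal, DHRS3 reduces retinal back to retinol, and the ALDH1A enzymes oxidise retinal to RA. The CYP26 enzymes degrade RA, and in the embryo the zones that make RA and the zones that remove it lie apart. Levels are given below as CPM (read counts relative to library size, with TMM scaling in edgeR) in replicates 1 and 2, and, where genes are compared with each other, as TPM, which also divides by gene length. A transcript was called a differentially expressed transcript (DET) when edgeR's quasi-likelihood test gave a p under 0.05, after Benjamini-Hochberg adjustment across every gene tested, together with a log2 fold change beyond 1 in either direction. Log2 fold changes are given ± SE.

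Library totals ran from 3681739 (RUES2-GLR ESCs, replicate 2) to 38771193 counts in human and from 6487157 to 20052505 in mouse. The 3 counts that a value of 0 allows corresponded to between 0.0774 and 0.815 CPM in human and between 0.150 and 0.462 CPM in mouse before scaling, for counting error only. All 9 human genes passed the filter on low counts, as did 7 of 9 mouse genes. Aldh1a1 and Cyp26c1 did not, with at most 5 counts in any mouse library, so they were not tested in mouse.

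Markers of each group were checked against its label. Naïve markers summed to 3479 and 3770 CPM in naïve H9 ESCs (5 of 5 genes found, SUSD2 highest at 1671 CPM on average) and to at most 19.3 CPM in any other human sample. POU5F1, the core pluripotency factor, was at 714 CPM on average in primed H9, and at 612.5 CPM in RUES2-GLR ESCs. TBXT, the brachyury gene of the primitive streak, averaged 126 CPM in early RA-gastruloids and its mouse counterpart T 212.5 CPM in early mouse gastruloids. Late RA-gastruloids held PAX3 at 254 CPM and the neural tube gene PAX6 at 100 CPM, and late mouse gastruloids held the somite gene Meox1 at 137 CPM and the neural gene Irx3 at 135 CPM. In mouse, Meox1 made up most of the paraxial mesoderm and somite list (155 and 151 CPM). Irx3 made up most of the neural tube list (151 and 159 CPM), so the other genes of both lists were far lower. In mouse, naïve markers (4 of 5 genes found, Tfcp2l1 highest in every sample but 1 late one) summed to 1177 and 1203 CPM in naïve ESCs, 20.8 and 23.5 CPM in EpiLCs, 316 and 319.8 CPM in early and 25.9 and 26.2 CPM in late gastruloids. In early mouse gastruloids Pou5f1 averaged 922 CPM and Nanog 386 CPM, against 979 and 71.5 CPM in EpiLCs. Mouse Msgn1, a presomitic mesoderm gene, was at 0 in early and late gastruloids, and cardiac markers summed to at most 3.45 CPM in any human sample.

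STRA6 (ENSG00000137868; GRCh38 chr15:74179466-74212267, minus strand), the membrane receptor for retinol bound to its plasma carrier, was the most abundant of the 9 genes in early RA-gastruloids per length, at 116.8 and 112.3 TPM. Its levels were 9.86 and 10.2 CPM in naïve H9, 6.56 and 6.496 CPM in primed H9 and 43.98 and 58.2 CPM in RUES2-GLR ESCs. In RA-gastruloids they were 229 and 220.1 CPM at the early and 125.6 and 98.3 CPM at the late stage. No 2 groups overlapped, and both RA-gastruloid stages lay above every ESC sample. STRA6 rose from RUES2-GLR ESCs to early RA-gastruloids by 2.19 ± 0.13 on the log2 scale (4.55-fold, edgeR adjusted p = 7.30e-15). From early to late it fell by 1.00 ± 0.12 (2.00-fold, adjusted p = 2.80e-08), a value at the edge of the fold threshold that fell short of it in 8 of 18 alternative settings, at −0.83 without replicate 2 of late RA-gastruloids. Its exons share 519 bases (6.77% of its length) with CCDC33 on the other strand. Since the counting used no strand, reads over both genes there were counted for neither.

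Mouse Stra6 (ENSMUSG00000032327; GRCm39 chr9:57971071-58061279, plus strand) followed another course. It was at 0 and 0.179 CPM in naïve ESCs, 5.91 and 7.55 CPM in EpiLCs, 0.592 and 0.176 CPM in early and 16.1 and 16.5 CPM in late gastruloids. EpiLCs and late gastruloids were both far above the other groups, and naïve ESCs and early gastruloids overlapped. From 2 counts in naïve ESCs to 155 in EpiLCs, the ratio of pooled CPM was 64.6 (95% counting interval 17.6 to 538). In early gastruloids Stra6 lay below EpiLCs (log2 fold change −3.95 ± 0.34; edgeR adjusted p = 1.58e-15), and it rose from early to late gastruloids by 5.17 ± 0.30 (36.1-fold, adjusted p = 4.53e-23). Without replicate 1 of early gastruloids, the higher one, these changes were −5.21 and 6.43, so their sizes depend on that library.

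RDH10 (ENSG00000121039, chromosome 8), the retinol dehydrogenase of the embryo, was called at neither step from RUES2-GLR ESCs to late RA-gastruloids. It was at 21.2 and 22.9 CPM in naïve H9, 8.80 and 9.28 CPM in primed H9, 6.38 and 6.36 CPM in RUES2-GLR ESCs, 6.61 and 5.85 CPM in early and 8.95 and 9.77 CPM in late RA-gastruloids. Naïve H9 ESCs were the highest, and RDH10 fell by 1.28 ± 0.14 on the log2 scale to primed H9 ESCs (edgeR adjusted p = 2.75e-09). Its change from RUES2-GLR ESCs to early RA-gastruloids was −0.03 ± 0.22 (adjusted p = 0.924) and that from early to late 0.57 ± 0.19 (adjusted p = 0.0102, under the fold threshold). Mouse Rdh10 (ENSMUSG00000025921; GRCm39 chr1:16175998-16203958, plus strand) was at 4.46 and 6.09 CPM in naïve ESCs, 6.94 and 6.18 CPM in EpiLCs, 7.15 and 6.67 CPM in early and 181 and 169.7 CPM in late gastruloids. Early gastruloids and EpiLCs overlapped, and both late samples lay far above all others. Late gastruloids exceeded early ones by 4.66 ± 0.10 on the log2 scale (25.2-fold, adjusted p = 4.03e-44), and Rdh10 was not called in any other mouse comparison.

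DHRS3 (ENSG00000162496; GRCh38 chr1:12567910-12618210, minus strand), the reductase that returns retinal to retinol and is itself known to respond to RA, rose and fell along the human series. It was at 12.1 and 13.7 CPM in naïve H9, 17.0 and 16.3 CPM in primed H9, 39.6 and 39.5 CPM in RUES2-GLR ESCs, 15.3 and 13.4 CPM in early and 65.5 and 50.7 CPM in late RA-gastruloids. Late RA-gastruloids were the highest, and early RA-gastruloids overlapped with naïve H9 ESCs. DHRS3 fell by 1.46 ± 0.16 on the log2 scale from RUES2-GLR ESCs to early RA-gastruloids (edgeR adjusted p = 2.04e-09) and then rose by 2.02 ± 0.15 (4.07-fold, adjusted p = 3.64e-13). Mouse Dhrs3 (ENSMUSG00000066026; GRCm39 chr4:144619397-144654779, plus strand) was at 0 and 0.269 CPM in naïve ESCs, 3.10 and 2.43 CPM in EpiLCs, 0.394 and 0.702 CPM in early and 6.76 and 8.32 CPM in late gastruloids. None of the 4 mouse groups overlapped, but naïve ESCs and early gastruloids were not told apart by the test (edgeR adjusted p = 0.106). Their pooled ratio was 3.09 (interval 0.884 to 16.5). The pooled ratio of EpiLCs to naïve ESCs was 16.1 (interval 5.25 to 80.4, from 3 counts in naïve ESCs, all in replicate 2). Early gastruloids lay below EpiLCs (log2 fold change −2.36 ± 0.43; adjusted p = 3.05e-06), and Dhrs3 rose from early to late by 3.85 ± 0.37 (14.4-fold, adjusted p = 3.80e-14).

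Among the RA-synthesising enzymes, ALDH1A2 (ENSG00000128918; GRCh38 chr15:57953424-58497866, minus strand), the main RA-making enzyme of embryonic mesoderm, was higher in RUES2-GLR than in H9 ESCs and rose at each step of RA-gastruloid formation. Its levels were 0.209 and 0.515 CPM in naïve H9, 0.140 and 0.119 CPM in primed H9 and 4.42 and 3.82 CPM in RUES2-GLR ESCs. Early RA-gastruloids held 35.8 and 35.3 CPM and late RA-gastruloids 115.5 and 117.5 CPM. The 5 groups did not overlap. Early RA-gastruloids exceeded RUES2-GLR ESCs by 3.06 ± 0.19 on the log2 scale (8.32-fold, edgeR adjusted p = 6.57e-15) and were exceeded by late ones by 1.71 ± 0.12 (3.27-fold, adjusted p = 3.80e-13). The exons of ALDH1A2 share 354 bases with AQP9 and 209 bases with ALDH1A2-AS1, together a small part of its 8127 bases.

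Mouse Aldh1a2 (ENSMUSG00000013584; GRCm39 chr9:71123071-71203525, plus strand) was already transcribed in naïve ESCs. It was at 13.7 and 13.2 CPM there, 0.738 and 0.788 CPM in EpiLCs, 3.50 and 4.83 CPM in early and 151.5 and 138.2 CPM in late gastruloids. Late gastruloids were the highest and EpiLCs the lowest, with no overlap between groups. Aldh1a2 fell by 4.09 ± 0.26 on the log2 scale from naïve ESCs to EpiLCs (17.1-fold, edgeR adjusted p = 3.43e-21), differed by −1.74 ± 0.16 between early gastruloids and the naïve ESCs from which they were made (adjusted p = 6.74e-14), and rose from early to late by 5.18 ± 0.11 (36.2-fold, adjusted p = 1.76e-43).

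ALDH1A1 (ENSG00000165092; GRCh38 chr9:72900671-73080442, minus strand), known from the dorsal retina and adult tissues, stayed under 4 CPM in every sample. It was at 0.209 and 0.286 CPM in naïve H9, 3.42 and 2.28 CPM in primed H9, 2.04 and 0.318 CPM in RUES2-GLR ESCs, 0.192 and 0.101 CPM in early and 0.0968 and 0.204 CPM in late RA-gastruloids. Primed H9 ESCs were the highest, and the replicates of RUES2-GLR ESCs (25 counts and 1 count) stood well apart. ALDH1A1 rose from naïve to primed H9 ESCs by 3.42 ± 0.47 on the log2 scale (10.7-fold, edgeR adjusted p = 1.10e-07). Since only the primed H9 samples and 1 RUES2-GLR sample were high enough for the filter on low counts, ALDH1A1 had to differ there and that call is no support. The pooled ratio of RUES2-GLR ESCs to early RA-gastruloids was 11.5 (interval 3.52 to 59.3), and without replicate 1 of RUES2-GLR ESCs this change was no longer called. In mouse, Aldh1a1 (ENSMUSG00000053279; GRCm39 chr19:20470079-20620829, plus strand) was at 0 in both naïve samples and at 0.0657 to 0.583 CPM in the other samples with a count.

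ALDH1A3 (ENSG00000184254; GRCh38 chr15:100877714-100916626, plus strand), the enzyme of the ventral retina and nasal region, was highest in naïve H9 ESCs and lowest in late RA-gastruloids. It was at 5.95 and 6.70 CPM in naïve H9, 3.77 and 3.74 CPM in primed H9, 0.899 and 1.59 CPM in RUES2-GLR ESCs, 1.82 and 1.81 CPM in early and 0 and 0.204 CPM in late RA-gastruloids. The 2 counts left in late RA-gastruloids against 37 in the early ones gave a pooled ratio of 27.7 (interval 7.14 to 237). The edgeR fall from early to late was called (adjusted p = 1.19e-06), as was that from primed H9 to RUES2-GLR ESCs (−1.83 ± 0.38 on the log2 scale; adjusted p = 1.18e-04). The latter call was lost without replicate 1 of RUES2-GLR ESCs (−1.10, adjusted p = 0.178). ALDH1A3-AS1 on the other strand covers 1715 bases, or 32.2%, of the exon bases of ALDH1A3. Reads there that overlap both genes are counted for neither under the counting defaults, so ALDH1A3 may be counted too low. Mouse Aldh1a3 (ENSMUSG00000015134; GRCm39 chr7:66040638-66077265, minus strand) was at 3.90 and 3.14 CPM in naïve ESCs, 0.148 and 0.131 CPM in EpiLCs, 0.444 and 0.263 CPM in early and 0.583 and 0.149 CPM in late gastruloids. Naïve ESCs stood above every other mouse sample, 25.2-fold over EpiLCs as a pooled ratio (interval 8.24 to 125). Early and late mouse gastruloids overlapped.

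**Figure D1:**
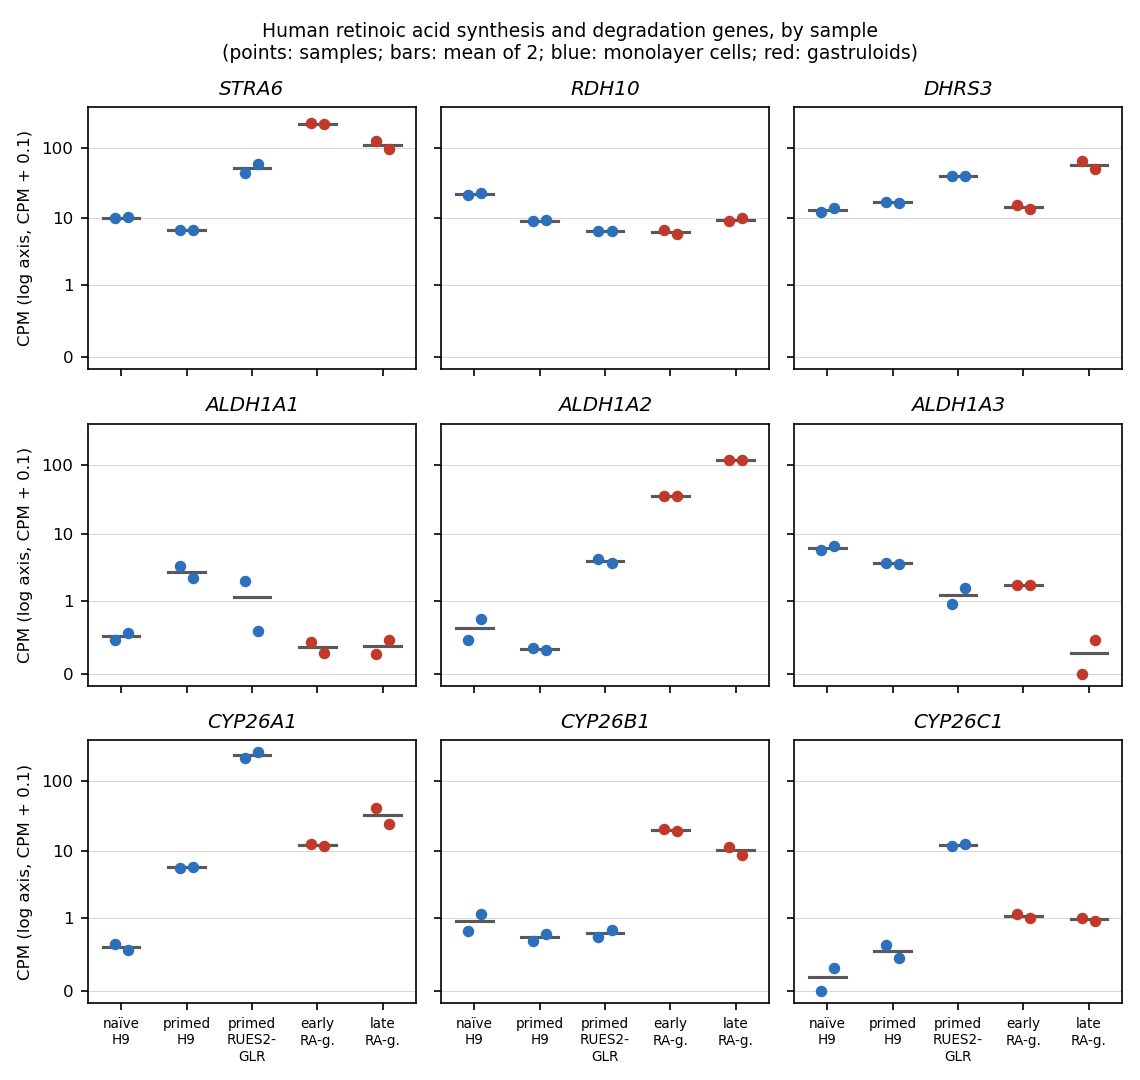
CPM of the 9 human genes in each of the 10 samples (points, y axis on a log scale after adding 0.1) by group (x axis, RA-g. for RA-gastruloids), with bars at the mean of 2 replicates. ALDH1A2 and STRA6 were highest in RA-gastruloids, whereas CYP26A1 and CYP26C1 were highest in RUES2-GLR ESCs.

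The RA-degrading enzyme CYP26A1 (ENSG00000095596; GRCh38 chr10:93073475-93077885, plus strand) was highest before gastruloids were induced. It was at 0.365 and 0.286 CPM in naïve H9, 5.72 and 5.88 CPM in primed H9 and 214 and 262 CPM in RUES2-GLR ESCs. Early RA-gastruloids held 12.5 and 11.6 CPM and late RA-gastruloids 41.9 and 24.6 CPM. The groups did not overlap, and the lowest RUES2-GLR sample lay above every other human sample. CYP26A1 rose by 4.12 ± 0.36 on the log2 scale from naïve to primed H9 ESCs (17.4-fold, edgeR adjusted p = 1.04e-11) and was higher in RUES2-GLR than in primed H9 ESCs by 5.34 ± 0.18 (40.6-fold, adjusted p = 4.50e-21). It fell by 4.29 ± 0.18 to early RA-gastruloids (adjusted p = 3.32e-19), whose cells had been given RA on the day before aggregation, and rose by 1.49 ± 0.18 from early to late (2.82-fold, adjusted p = 2.41e-08).

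Mouse Cyp26a1 (ENSMUSG00000024987; GRCm39 chr19:37686246-37689984, plus strand) was almost silent until the late stage. It had no count in either naïve sample, 0.148 and 0.197 CPM in EpiLCs, 0.247 and 0.0878 CPM in early and 29.6 and 27.5 CPM in late gastruloids. EpiLCs and early gastruloids overlapped, and both late samples were far above the rest. From 6 counts in early to 439 in late gastruloids, the pooled ratio was 151 (interval 69.0 to 415), and the edgeR change was 7.16 ± 0.29 on the log2 scale (adjusted p = 1.84e-29), or 8.15 without replicate 1 of early gastruloids. The fit also called Cyp26a1 higher in early gastruloids than in naïve ESCs (adjusted p = 0.0452), but early gastruloids (5 counts and 1 count) lay under the CPM that 3 counts would give in either naïve library, so no fold is given, and with DESeq2 the change was not called (adjusted p = 0.0796).

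In both species a promoter window of this gene held, and no window searched of the other genes did, a direct repeat of the hexamers that RA receptors are known to bind. Windows ran from 250 bases before to 50 bases after a transcript start (human from RefSeq on GRCh38.p14, 16 windows for 8 of 9 genes, mouse from GENCODE canonical starts on GRCm39, 9 windows for 9 genes). The search took any pair of hexamers, each being AGGTCA or else GGGTCA or else AGTTCA or else GGTTCA, spaced by 5 (DR5), 2 (DR2) or 1 (DR1) bases, on both strands. The 2 matches are shown 5′ to 3′ on the gene's strand, since these were the only matches and fell in the same gene in both species. Capitals mark the hexamers, which read as AGTTCA on the other strand, and 40 bases before them are given.
CYP26A1: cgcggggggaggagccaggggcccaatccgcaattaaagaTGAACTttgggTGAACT
Cyp26a1: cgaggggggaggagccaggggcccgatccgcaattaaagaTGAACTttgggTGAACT
The human stretch lies at chr10:93073763-93073819 (GRCh38.p14), with the repeat at −90 to −74 from the start at 93073893, the downstream one of the 2 listed starts. The mouse stretch lies at chr19:37686184-37686240 (GRCm39), with the repeat at −17 to −1 from the start at 37686241. Of 57 bases, 55 were identical, and the DR5 itself did not differ. A DR5 of these hexamers occurred in 0.0883% of all 35116 human windows and in 0.0517% of all 21260 mouse windows, and any of the 3 repeats in 0.259% and 0.367%. A match describes the sequence only.

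CYP26B1 (ENSG00000003137; GRCh38 chr2:72129238-72147862, minus strand), which clears RA in hindbrain, limb and gonad, took the opposite course to CYP26A1 on entry into RA-gastruloids. It was at 0.626 and 1.15 CPM in naïve H9, 0.419 and 0.547 CPM in primed H9, 0.491 and 0.636 CPM in RUES2-GLR ESCs, 20.6 and 19.4 CPM in early and 11.6 and 8.85 CPM in late RA-gastruloids. The ESC groups lay close together, and every RA-gastruloid sample was well above them. CYP26B1 rose by 5.24 ± 0.35 on the log2 scale to early RA-gastruloids (37.8-fold, edgeR adjusted p = 4.12e-14), and its early to late change of −0.94 ± 0.18 (adjusted p = 5.30e-05) missed the fold threshold. Mouse Cyp26b1 (ENSMUSG00000063415; GRCm39 chr6:84548396-84570890, minus strand) had no count in naïve ESCs. It was at 0.591 and 0.526 CPM in EpiLCs, 0.592 and 0.439 CPM in early and 12.2 and 17.4 CPM in late gastruloids. EpiLCs and early gastruloids overlapped. Against 3 counts per naïve library, EpiLCs were at least 1.63-fold and early gastruloids at least 1.5-fold higher (adjusted p = 0.00179 and 0.00144). At the late stage the rise was 4.74 ± 0.31 on the log2 scale (26.8-fold, adjusted p = 1.33e-20).

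CYP26C1 (ENSG00000187553; GRCh38 chr10:93060798-93069540, plus strand) lies 3934 bases upstream of CYP26A1. It was at 0 and 0.115 CPM in naïve H9, 0.349 and 0.190 CPM in primed H9, 11.8 and 12.4 CPM in RUES2-GLR ESCs, 1.15 and 1.01 CPM in early and 1.02 and 0.916 CPM in late RA-gastruloids. Like its neighbour CYP26A1, it was highest in RUES2-GLR ESCs, while early and late RA-gastruloids overlapped. It was higher in RUES2-GLR than in primed H9 ESCs by 5.64 ± 0.35 on the log2 scale (edgeR adjusted p = 1.84e-14; 5.04 without replicate 2 of primed H9) and fell by 3.46 ± 0.33 to early RA-gastruloids (11.0-fold, adjusted p = 1.83e-10). Mouse Cyp26c1 (ENSMUSG00000062432; GRCm39 chr19:37674029-37681846, plus strand) had 0 to 3 counts in each of the 8 mouse libraries, including late gastruloids, where Cyp26a1 had 254 and 185 counts.

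**Figure D2:**
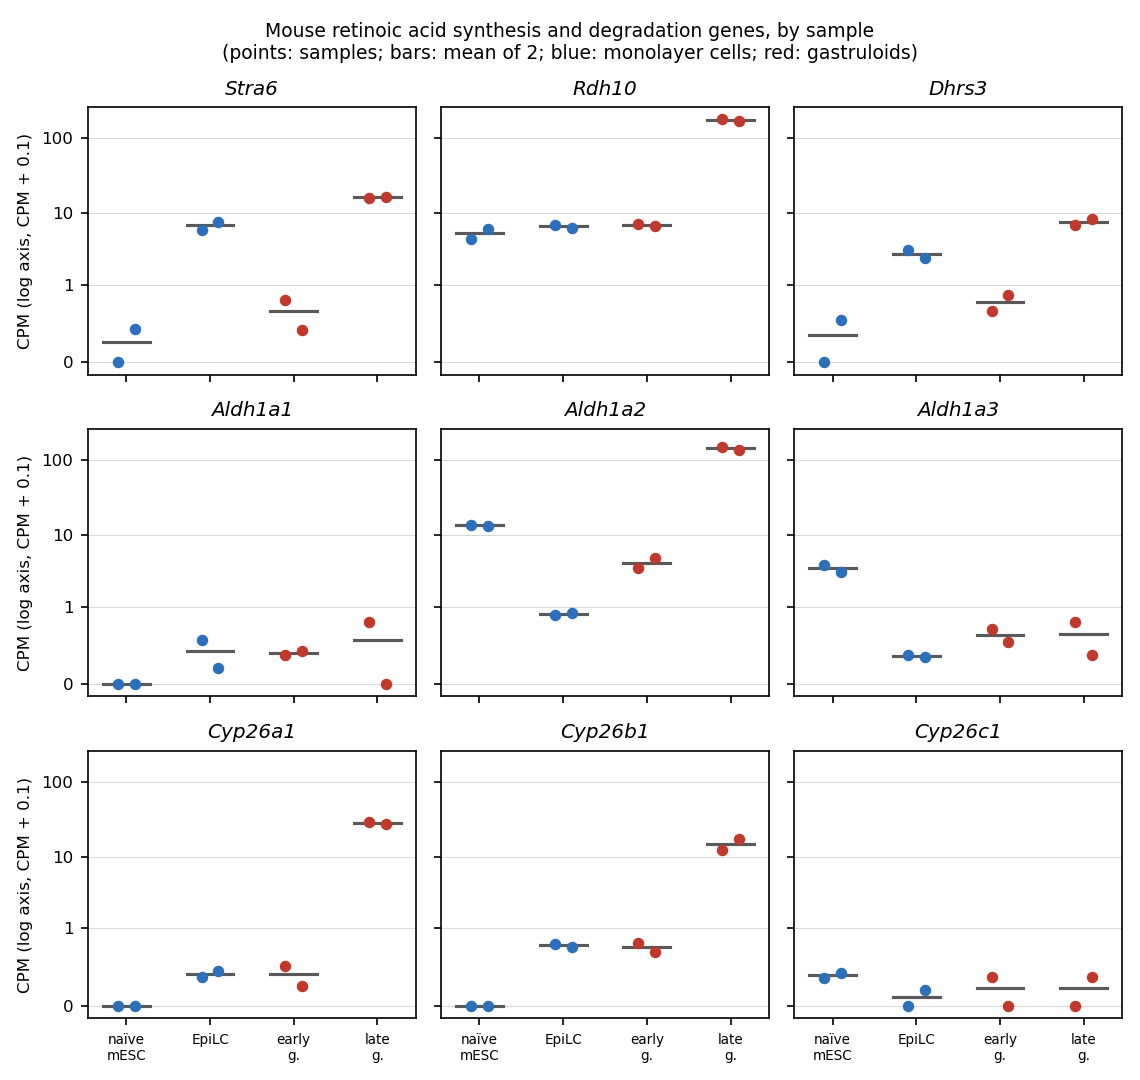
CPM of the 9 mouse genes in each of the 8 samples (points, y axis on a log scale after adding 0.1) by group (x axis, g. for gastruloids), with bars at the mean of 2 replicates. Stra6, Rdh10, Dhrs3, Aldh1a2, Cyp26a1 and Cyp26b1 were highest in both late gastruloid samples.

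Per length, the makers and degraders of RA could be set side by side. The summed level of the 3 ALDH1A genes was 4.05 ± 0.39 TPM (SD, n = 2) in naïve H9, 7.54 ± 1.32 TPM in primed H9, 2.50 ± 0.91 TPM in RUES2-GLR ESCs, 18.6 ± 0.25 TPM in early and 57.9 ± 2.2 TPM in late RA-gastruloids. The summed CYP26 level in the same groups was 0.940 ± 0.22, 9.27 ± 0.062, 178.9 ± 19.98, 33.0 ± 1.64 and 54.2 ± 17.0 TPM. CYP26 transcripts exceeded ALDH1A transcripts in both samples of primed H9 ESCs, RUES2-GLR ESCs and early RA-gastruloids, and the ranges of the families overlapped in late RA-gastruloids. The leading gene of each family also changed. ALDH1A3 made up 88.4% and 91.8% of ALDH1A transcripts in the naïve H9 samples, whereas ALDH1A2 was the main one in RA-gastruloids. CYP26B1 made up 51.2% and 65.9% of CYP26 transcripts in the naïve H9 samples, and CYP26A1 48.8% and 26.9%. These naïve shares rest on few counts (12 for CYP26A1 in the group), and the 2 genes were near level in replicate 1. In primed H9 ESCs CYP26A1 made up 92.1% and 92.7%. In early RA-gastruloids CYP26B1 (48.6% and 49.1%) and CYP26A1 (48.4% and 48.0%) were level.

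In mouse, the ALDH1A sum was 22.0 ± 1.37 TPM in naïve ESCs, 1.43 ± 0.059 TPM in EpiLCs, 6.78 ± 1.29 TPM in early and 231 ± 19.3 TPM in late gastruloids. The CYP26 sum was 0.299 ± 0.046, 0.743 ± 0.13, 0.779 ± 0.48 and 61.9 ± 1.06 TPM in these groups. Aldh1a2 transcripts were the larger part of the ALDH1A sum in each mouse group, and ALDH1A exceeded CYP26 in every mouse sample. Late mouse gastruloids had the highest ALDH1A sum of the 9 groups, and RUES2-GLR ESCs the highest CYP26 sum. TPM values of the 2 species come from separate tables and rest on a length of 8127 bases for ALDH1A2 but 2264 for Aldh1a2. In CPM, these genes averaged 116.5 in late RA-gastruloids and 144.8 in late mouse gastruloids.

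**Figure D3:**
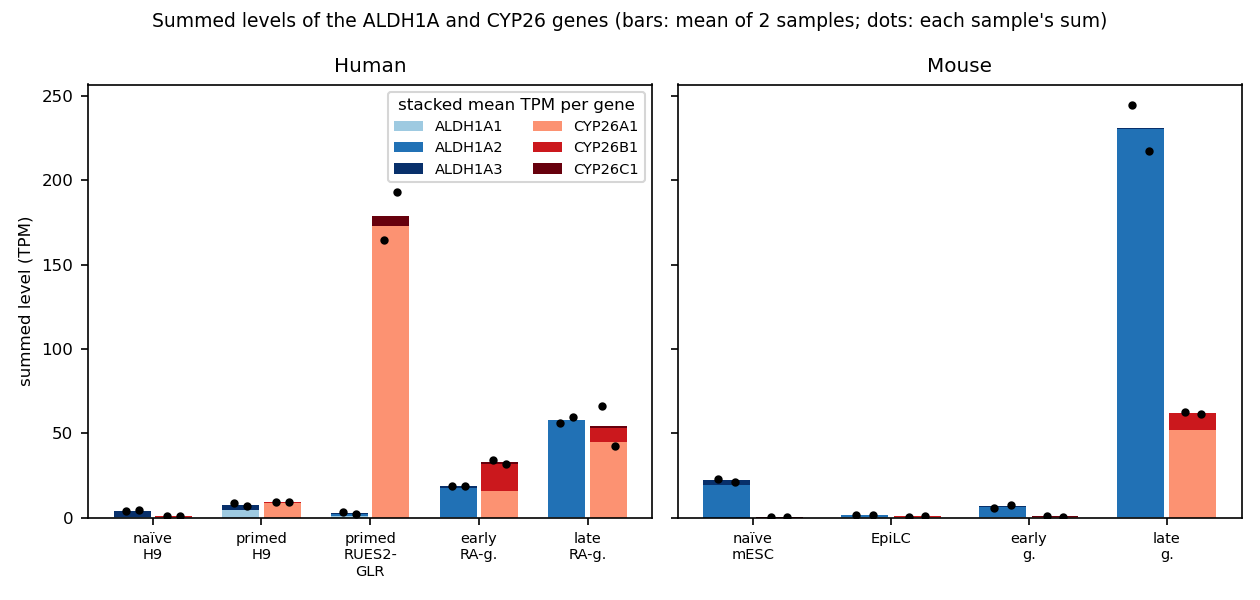
Summed TPM (y axis) of the 3 ALDH1A genes (blue shades) and the 3 CYP26 genes (red shades) in each group (x axis), stacked by the mean of each gene over 2 samples, with dots at the sum in each sample. CYP26A1 accounts for most of the tall red bar of RUES2-GLR ESCs and ALDH1A2 for most of the tall blue bar of late mouse gastruloids.

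Taken by stage, the 9 human genes changed in both directions at every step. From naïve to primed H9 ESCs, ALDH1A1 and CYP26A1 rose and ALDH1A2 and RDH10 fell, 2 and 2 of 9. Of all 18300 genes tested, 25.5% rose and 22.3% fell in this comparison, so that the share of DETs among these genes was close to the background. The fall of ALDH1A2 rested on 13 counts against 7 and was no longer called without replicate 2 of either group. From primed H9 to RUES2-GLR ESCs, which compares the lines and not stages, CYP26A1, CYP26C1, ALDH1A2, STRA6 and DHRS3 were higher and ALDH1A3 lower (5 and 1 of 9, against 17.1% and 12.2% of all genes). STRA6 differed by 2.92 ± 0.16, ALDH1A2 by 5.02 ± 0.39 and DHRS3 by 1.25 ± 0.14 on the log2 scale. From RUES2-GLR ESCs to early RA-gastruloids, ALDH1A2, CYP26B1 and STRA6 rose and ALDH1A1, CYP26A1, CYP26C1 and DHRS3 fell (3 and 4 of 9, against 12% and 17.6%). Between early and late RA-gastruloids, ALDH1A2, CYP26A1 and DHRS3 rose and ALDH1A3 and STRA6 fell (3 and 2 of 9, against 11.8% and 13.2%). The median log2 fold change of the 9 genes in these comparisons was −0.62, 1.255, −0.03 and −0.14, against 0.0048, −0.12, 0.08 and 0 over all genes tested.

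Of the 7 mouse genes tested, Cyp26b1, Dhrs3 and Stra6 rose and Aldh1a2 and Aldh1a3 fell from naïve ESCs to EpiLCs (3 and 2, against 17.7% and 12.1% of 15003 genes tested). In early gastruloids, Aldh1a2 was higher and Dhrs3 and Stra6 lower than in EpiLCs (1 and 2, against 11.7% and 9.24%). Against the naïve ESCs from which they were made, Cyp26a1 and Cyp26b1 were higher and Aldh1a2 and Aldh1a3 lower (2 and 2, against 16.2% and 6.81%). The Cyp26a1 call was lost in 7 of 15 alternative settings. At the late stage against the early one, Aldh1a2, Cyp26a1, Cyp26b1, Dhrs3, Rdh10 and Stra6 rose and none fell (6 and 0, against 20.1% and 19.1%). Aldh1a3 was high in naïve ESCs alone, and Cyp26a1 and Cyp26b1 in late gastruloids alone. A gene that passes the filter on low counts only through such a group has to differ from it, so the calls of Aldh1a3 against naïve ESCs and of Cyp26a1 and Cyp26b1 against late gastruloids, counted here, are no support. These comparisons share samples, so their counts are not independent of each other.

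The changes of the species were compared as an interaction, human change minus mouse change, in 1 edgeR fit of all 18 samples over 14006 genes matched by symbol. At the last step, from early to late gastruloids, 7 of 9 genes differed between the species (against 35.4% of all matched genes), and in each of the 7 the human change was the lower one. One of them, ALDH1A3, had 2 counts in late RA-gastruloids and 6 in late mouse gastruloids, its difference of −4.53 ranged from −7.66 to −2.96 when 1 library was left out (−7.66 without replicate 2 and −2.96 without replicate 1 of late RA-gastruloids), and it was not called without replicate 1 of late mouse gastruloids (−3.18, adjusted p = 0.236). The difference was −6.03 ± 0.31 on the log2 scale for STRA6 (adjusted p = 2.42e-18), which fell in RA-gastruloids and rose in mouse gastruloids. It was −5.53 ± 0.44 for CYP26A1 (adjusted p = 6.08e-13), −3.94 ± 0.23 for RDH10 (adjusted p = 6.10e-17) and −3.31 ± 0.18 for ALDH1A2 (adjusted p = 1.35e-17). Without replicate 1 of early mouse gastruloids the differences of STRA6 and CYP26A1 were −7.33 and −6.58. From the primed state to early gastruloids, 5 of 9 genes differed (against 32.6%). Here the human primed group was RUES2-GLR ESCs, whereas it was H9 ESCs for the step from naïve to primed, and the 2 lines differed in CYP26A1 by 40.6-fold. STRA6 differed by 6.04 ± 0.34 (adjusted p = 3.91e-17), or 7.34 without the same library, and CYP26B1 by 5.16 ± 0.83 (adjusted p = 2.42e-06), while ALDH1A2, higher in early gastruloids of both species, did not pass the test (0.58 ± 0.43; adjusted p = 0.257). The differences of CYP26A1 and CYP26C1 (−4.45 ± 1.16 and −4.49 ± 1.69) were called, but not without replicate 1 of the early mouse gastruloids (−3.40 and −1.05), and that of CYP26C1 was −7.02 without replicate 2 of EpiLCs and lost its call without replicate 1 (−4.02, adjusted p = 0.0509). The call of ALDH1A1 (−3.70 ± 1.59, adjusted p = 0.0477) was lost in 13 of 21 settings, at −1.38 without replicate 1 of RUES2-GLR ESCs. From naïve to primed cells, 6 of 9 genes differed (against 42.1%), among them STRA6 (−6.61 ± 0.54; adjusted p = 4.14e-13) and DHRS3 (−3.70 ± 0.61; adjusted p = 2.44e-06), which rose in mouse and were not called in human. In naïve mouse ESCs these genes had 2 and 3 counts, all in replicate 2, and without it the differences were −10.2 and −7.86, so their sizes are uncertain. That of ALDH1A2 (2.53 ± 0.79) rested on 13 against 7 human counts and was not called without replicate 2 of primed H9 ESCs (2.71, adjusted p = 0.0886), and it was 3.28 without replicate 2 of naïve H9 ESCs. Since mouse gastruloids came from naïve ESCs, the primed to early contrast follows the culture in human only.

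**Figure D4:**
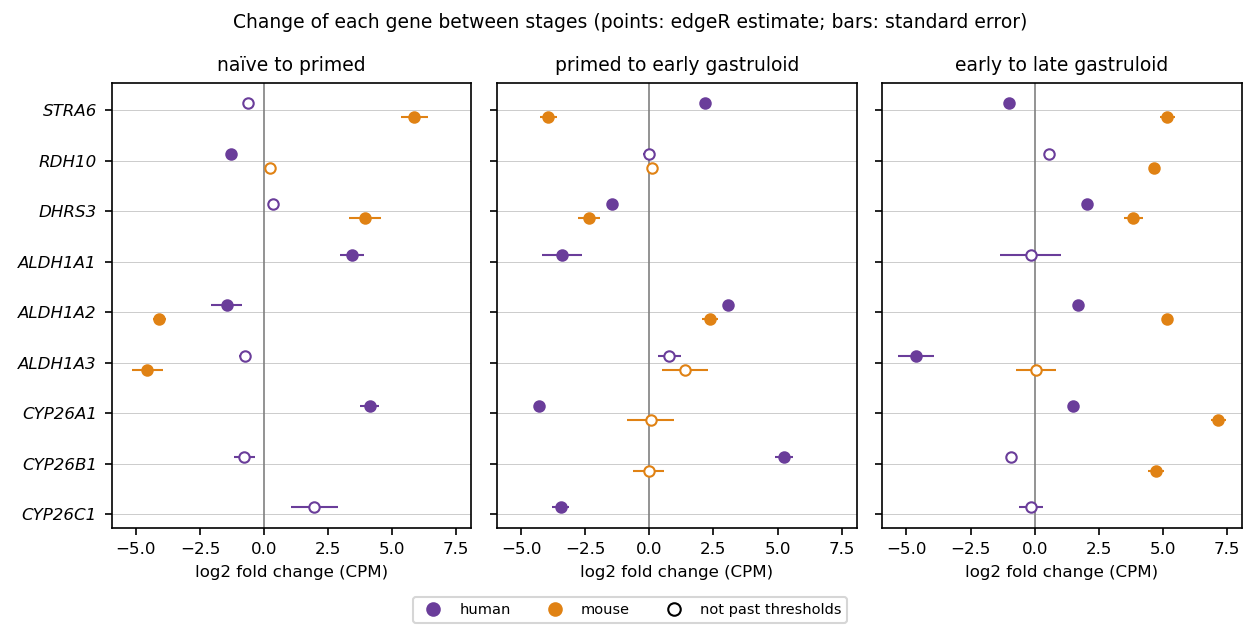
Log2 fold change (x axis, edgeR estimate with SE bars) of each gene (y axis) from naïve to primed cells, from primed cells to early gastruloids and from early to late gastruloids, in human (violet, with H9 as the primed cells of the first panel and RUES2-GLR of the second) and mouse (orange), with open points where a change missed the thresholds. Untested mouse genes and mouse changes from a group at 0 are not drawn. In the early to late panel the mouse points of STRA6, RDH10, CYP26A1 and CYP26B1 lie far to the right of the human ones.

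Other retinoid metabolism genes were listed as well (28 listed, 19 tested in human and 14 in mouse). From RUES2-GLR ESCs to early RA-gastruloids 3 rose and 9 fell of 19, where 12% and 17.6% of all genes did, with a median log2 fold change of −0.97 against 0.08 over all genes. CYP2S1, a further RA-oxidising P450, fell from 576 ± 80.2 to 30.3 ± 5.43 CPM (SD, n = 2; edgeR adjusted p = 3.66e-22), RDH11, a retinal reductase, from 519.9 ± 18.4 to 89.6 ± 4.08 CPM, and LRAT, which esterifies retinol for storage, from 37.4 ± 2.49 to 2.07 ± 0.49 CPM. The list's counts in the other human comparisons were 5 up and 3 down from naïve to primed H9 (25.5% and 22.3% of all genes), 8 and 0 from primed H9 to RUES2-GLR (17.1% and 12.2%), and 2 and 5 from early to late (11.8% and 13.2%). The first of these was near the background. The 2 rises from early to late were of genes that passed the filter on low counts only through late RA-gastruloids. A gene counted as a rise into early RA-gastruloids and a fall after them passed only through the early ones. Another, counted as higher in RUES2-GLR than in primed H9 ESCs and as falling to early RA-gastruloids, passed only through RUES2-GLR ESCs. These calls, counted here, are no support. In mouse, 5 of 14 rose and 1 fell from naïve ESCs to EpiLCs (17.7% and 12.1% of all genes), 1 and 3 from EpiLCs to early gastruloids (11.7% and 9.24%), 2 and 0 from naïve ESCs to early gastruloids (16.2% and 6.81%), and 4 and 3 from early to late (20.1% and 19.1%). Ttr, a plasma carrier of the retinol-binding protein, had no count before the late stage and averaged 21.2 CPM there, so it too passed the filter only through that group and its call is no support. Another of the 4 rises was of a gene that also passed only through late gastruloids, and that call is no support either.

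Receptors and binding proteins (12 of 12 tested in each species) were listed too. From RUES2-GLR ESCs to early RA-gastruloids 7 rose and 1 fell (median 1.27 against 0.08 over all genes, of which 12% rose and 17.6% fell). CRABP2, which carries RA to its receptors, rose from 159 ± 7.35 to 1217 ± 20.4 CPM (edgeR adjusted p = 7.32e-20) and RXRG, a partner receptor, from 0.400 ± 0.33 to 14.8 ± 0.74 CPM, while CRABP1, which binds RA in the cytosol, fell from 91.5 ± 2.50 to 19.5 ± 1.12 CPM. Late RA-gastruloids showed 4 of these genes up and 3 down against early ones (11.8% and 13.2% of all genes), with RARB up from 2.46 ± 0.089 to 26.9 ± 0.73 CPM and RARG down from 124 ± 4.31 to 32.8 ± 5.97 CPM. Mouse Rarg fell over the same step from 124 ± 3.09 to 31.9 ± 2.02 CPM, and 7 of the 12 mouse genes rose and 2 fell (median 1.16 against −0.03 over all genes, of which 20.1% rose and 19.1% fell). Mouse Crabp2 rose from 8.16 ± 1.23 to 119 ± 5.73 CPM and Rarb, at 0 in both early samples, reached 17.4 ± 0.40 CPM. Rarb passed the filter on low counts only through late gastruloids, so its call, 1 of the 7, was fixed by the filter and is no support. From naïve to primed H9 ESCs 4 rose and 3 fell, near the 25.5% and 22.3% of all genes, and from primed H9 to RUES2-GLR ESCs 4 were higher and 1 lower (17.1% and 12.2%). In mouse the counts were 4 and 0 from naïve ESCs to EpiLCs (17.7% and 12.1%), 1 and 5 from EpiLCs to early gastruloids (11.7% and 9.24%) and 2 and 1 from naïve ESCs to early gastruloids (16.2% and 6.81%).

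Textbook RA targets outside these genes (18 listed, 17 tested in human and 18 in mouse) had called members in each comparison. Some of them, such as CRABP2, RARB and NRIP1, are also on the lists above. In early RA-gastruloids against RUES2-GLR ESCs 15 of 17 rose and 0 fell (median 3.85, or 3.68 with genes at 0 set to the level of 3 counts, against 0.08 over all genes, of which 12% rose and 17.6% fell). HOXB1, an anterior HOX gene, had no count in RUES2-GLR ESCs and reached 242 ± 6.33 CPM, and MEIS2, a HOX cofactor, rose from 0.527 ± 0.30 to 83.2 ± 2.61 CPM. Towards the late stage, 10 rose and 1 fell (11.8% and 13.2% of all genes), with NR2F1 and NR2F2, orphan nuclear receptors, at 206 ± 18.2 and 224.7 ± 7.63 CPM in late RA-gastruloids. NR2F1 averaged at most 0.711 CPM in any other human group and passed the filter on low counts only through late RA-gastruloids. Its call, counted among the 10, was fixed by the filter and is no support. The genes of RA metabolism described here, some of them RA targets themselves, went both ways to the early stage. ALDH1A1, CYP26A1, CYP26C1 and DHRS3 fell, and ALDH1A2, CYP26B1 and STRA6 rose. In mouse 3 of 18 rose and 4 fell from naïve ESCs to EpiLCs (17.7% and 12.1% of all genes), 4 and 4 from naïve ESCs to early gastruloids (16.2% and 6.81%) and 6 and 4 from EpiLCs to early gastruloids (11.7% and 9.24%). At the late stage 16 rose and 1 fell (median 5.58 against −0.03 over all genes, of which 20.1% rose and 19.1% fell). Members that were low before the late stage, among them Rarb and Meis1, passed the filter only through late gastruloids and had to differ, so this count and median are no support. Meis1 went there from 0.367 ± 0.10 to 106 ± 4.01 CPM, and the posterior gene Cdx1 fell from 17.4 ± 0.74 to 0.647 ± 0.074 CPM. In primed against naïve H9 ESCs 2 of the list rose and 12 fell (25.5% and 22.3% of all genes), NR2F2 from 24.1 ± 3.75 CPM to 0, and in RUES2-GLR against primed H9 ESCs 4 were higher and 1 lower (17.1% and 12.2%).

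Cell type markers moved with several of these changes, and their part in them was not tested. The step from RUES2-GLR ESCs into early RA-gastruloids had the most calls among the 9 human genes. There the pluripotency list (5 of 5 found) went from 2783 and 2694 to 475 and 467 CPM. The primitive streak and tail bud list (6 of 6), led by CDX2, went from 6.62 and 6.36 to 732 and 736 CPM. For the paraxial mesoderm and somite list (6 of 6) the sums went from 10.3 and 12.4 to 652 and 693 CPM. Those of the renal and intermediate mesoderm list (5 of 5) went from 1.47 and 0.636 to 33.1 and 37.4 CPM. The endoderm list (3 of 3), led by SOX17, went from 5.48 and 5.41 to 23.5 and 23.5 CPM. The endothelium list, mostly KDR, went the other way, from 104 and 107 to 15.8 and 16.2 CPM. Across the RA-gastruloid stages the neural tube list (5 of 5 genes found) went from 16.7 and 13.4 to 227 and 208 CPM, led by PAX6, with OLIG2 at 0 in the late samples and NKX6-1 going from 3.67 to 0.126 CPM on average, and the paraxial mesoderm and somite list (6 of 6) from 652 and 693 to 421 and 373 CPM, with its leading gene changing from TBX6 to PAX3. Beside the falls of STRA6 and ALDH1A3, the primitive streak and tail bud list went from 732 and 736 to 139 and 115 CPM, the renal list from 33.1 and 37.4 to 10.4 and 8.34 CPM, the endoderm list (3 of 3) from 23.5 and 23.5 to 1.21 and 1.12 CPM, and the endothelium list (3 of 3) from 15.8 and 16.2 to 59.3 and 48.7 CPM. The pluripotency list went from 475 and 467 to 406 and 399.6 CPM, with POU5F1 highest in early and SOX2 in late RA-gastruloids and TDGF1 and NANOG at 0 in the latter. Across the mouse gastruloid stages the lists for renal and intermediate mesoderm (5 of 5 found; 3.45 and 3.34 to 106.5 and 105.5 CPM, led by Osr1), neural tube (5 of 5 found; 5.28 and 5.36 to 151 and 159 CPM, led by Irx3), heart (5 of 5 found; 5.13 and 4.39 to 68.6 and 71.9 CPM, led by Tnnt2) and paraxial mesoderm (6 of 6 found, Msgn1 at 0; 32.3 and 32.1 to 155 and 151 CPM) all summed higher beside the rise of Aldh1a2, Rdh10 and Cyp26a1. So did those for endoderm (3 of 3 found; 2.56 and 3.16 to 87.9 and 91.9 CPM, led by Foxa1), endothelium (3 of 3 found; 128 and 125 to 209 and 210.0 CPM) and fibroblasts (5 of 6 found; 15.9 and 16.2 to 379 and 417 CPM, led by Col3a1), while the primitive streak and tail bud list went from 271 and 269.8 to 47.1 and 48.9 CPM and the pluripotency list (4 of 5 found) from 1840 and 1841 to 208 and 193 CPM. Within the paraxial list Meox1 went from 0.0932 to 137 CPM on average and Tcf15, its main early gene, from 31.5 to 12.1 CPM. Within the endothelial list Kdr went from 0.932 to 132 CPM and Cdh5 from 0.0493 to 48.2 CPM, but Pecam1 from 126 to 29.7 CPM. From naïve mouse ESCs to EpiLCs, the neural tube list went from 4.32 and 3.67 to 33.8 and 45.2 CPM. The renal list went from 0.279 and 1.25 to 16.1 and 16.8 CPM. For the paraxial list the sums went from 19.8 and 19.2 to 66.4 and 73.6 CPM. The pluripotency list went from 2837 and 2851 to 1240 and 1303 CPM. Stra6 and Dhrs3 rose at this step. All of these but the pluripotency list were lower again in early gastruloids. In primed H9 against RUES2-GLR ESCs the neural tube list summed to 10.1 and 12.9 against 16.6 and 17.5 CPM, beside the difference of CYP26A1. OLIG2 averaged 8.43 against 0.604 CPM, while PAX6 averaged 0.0476 against 4.96 CPM, IRX3 2.54 against 10.6 CPM and SOX1 0.0119 against 0.563 CPM. Of the pluripotency list, SOX2 averaged 346 against 1283 CPM, POU5F1 714 against 612.5 CPM and DPPA4 596.5 against 397 CPM. Fibroblast markers (6 of 6 found), listed because of the feeders, summed to 678 and 660 CPM in naïve H9 against 654 and 678 CPM in primed H9 ESCs, but their members went both ways. COL1A1 and COL3A1 averaged 366 and 176 CPM in naïve H9 against 137 and 0.0587 CPM in primed H9 ESCs, while THY1 averaged 0.247 against 387 CPM, beside the higher RDH10 and NR2F2 of the naïve samples.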

How the data were processed

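The authors deposited raw read counts per gene, whole numbers with no normalisation, in 1 table for each species, and the deposited tables also give the length of each gene in bases, used here for TPM. Per the methods of the study, polyadenylated RNA was sequenced, and reads were trimmed by Trimmomatic 0.39, as pairs or singly, before STAR alignment (GRCh38 for human, GRCm39 for mouse). Counting by featureCounts ran at its defaults, under which reads with several alignments or over several genes are dropped and strand is ignored. Reads of 2 lengths were used. Which library had which, and the annotation release, are not given in the sources used here. The replicates of a stage were biological replicates of 1 batch, so p-values measure the spread within that batch.

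From these counts, samples were grouped by the labels and tested with edgeR 4.0.16 in R 4.3.3 (TMM, filterByExpr, glmQLFit, glmQLFTest). Each species had its own fit with all its groups (18300 human and 15003 mouse genes tested), and the interaction was fitted on 14006 genes of 15370 matched by symbol. Members and lists were chosen with earlier results of these data known. Named genes were all members, and genes of the lists called in the comparison described. Symbols and gene overlaps came from GENCODE 44 (44876 of 44910 genes found) and M39 (29486 of 29720), and coordinates from the count tables. Ratios of pooled CPM carry exact 95% counting intervals, which cover counting error only. The biological coefficient of variation was 8.18% in human and 4.30% in mouse. The chi-square per degree of freedom between replicates ran from 1.58 (early RA-gastruloids) to 12.3 (late RA-gastruloids), above sampling noise in every group. On simulated counts with 200 genes changed 4-fold between early and late gastruloids, 200 were recovered in each species, with 3 false calls among 18300 genes in human and 2 among 15003 in mouse. The changed genes were drawn from well-expressed ones, with the same spread for every gene, so this does not cover members with few counts. Alternatives were DESeq2 1.42.0 and its size factors, upper quartile scaling, no filter on low counts, fits of the 2 groups compared, a replicate block, the adjusted p alone and leaving out each replicate. Python 3.11.15, pandas 2.3.3, scipy 1.17.1 and matplotlib 3.10.9 were also used. A few genes of the lists are not reported here by name.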

Additional observations from a re-analysis of the deposited data

Results flagged for a closer look

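For 18 combinations of gene and step, the change in human differed from that in mouse in the interaction test. They are given as human change minus mouse change on the log2 scale, with no explanation weighed. From naïve to primed cells the differences were 2.53 for ALDH1A2, 3.70 for ALDH1A3, −6.71 for CYP26B1, −3.70 for DHRS3, −1.64 for RDH10 and −6.61 for STRA6. The CYP26B1 value is no measure of size, since the mouse gene had no count in naïve ESCs, and those of DHRS3 and STRA6 rest on 3 and 2 counts there (−7.86 and −10.2 without replicate 2 of naïve mouse ESCs). That of ALDH1A2 was not called without replicate 2 of primed H9 ESCs (adjusted p = 0.0886). From primed cells to early gastruloids they were −3.70 for ALDH1A1, −4.45 for CYP26A1, 5.16 for CYP26B1, −4.49 for CYP26C1 and 6.04 for STRA6. That of CYP26A1 was −3.40 without replicate 1 of early mouse gastruloids and lost its call. Those of ALDH1A1 and CYP26C1 rest on at most 3 counts in any EpiLC or early mouse gastruloid library, and ranged from −4.65 to −1.38 and from −7.02 to −1.05 when 1 library was left out. At the last step, from early to late gastruloids, they were −3.31 for ALDH1A2, −4.53 for ALDH1A3, −5.53 for CYP26A1, −5.54 for CYP26B1, −1.68 for DHRS3, −3.94 for RDH10 and −6.03 for STRA6. That of ALDH1A3 ranged from −7.66 to −2.96 when 1 library was left out and was not called without replicate 1 of late mouse gastruloids (adjusted p = 0.236). Without replicate 1 of early mouse gastruloids those of STRA6 were 7.34 and −7.33 at these 2 steps, and that of CYP26A1 at the last was −6.58. With 2 samples in each group, the test for an outlying sample within a group was not run.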

How the results depend on the processing

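Of 1648 single-gene values under the alternatives, 1574 kept their direction and their side of the thresholds, 38 (from 10 results) lost a call, 16 gained one and 20 (from 10 results) changed sign; no result that changed sign had an adjusted p under 0.05 at first. With the adjusted p alone, 7 in place of 4 human genes were called from naïve to primed H9 ESCs, and the calls over all genes rose there from 8747 to 13777. Fitting only the groups compared gave 2 in place of 4 mouse calls between naïve ESCs and early gastruloids. This count does not say whether genes missed the thresholds or went untested. Without 1 replicate, the count of species differences from primed to early ranged from 2 to 5, with 2 without replicate 1 of early mouse gastruloids. The call of ALDH1A1 in that comparison was lost in 13 of 21 settings and that of ALDH1A2 from naïve to primed H9 ESCs in 3 of 17. Without any filter on low counts, the values were 0.006282 for Cyp26b1 (EpiLCs to early) and −0.03421 for Aldh1a3 (early to late). The labels number replicates alike in all groups, but same-numbered samples did not deviate together (human r between −0.112 and 0.0684, mouse r between −0.0484 and 0.00805). With the replicate block, CYP26B1 was at −0.01063 (primed H9 to RUES2-GLR ESCs) and Cyp26b1 at 0.08284 (EpiLCs to early), and 1 call was lost, ALDH1A1 between species (adjusted p = 0.0678). Leaving out 1 replicate each gave ranges that crossed 0: −0.1013 to 0.4398 for CYP26B1 (primed H9 to RUES2-GLR ESCs), −0.1148 to 0.06824 for RDH10 (RUES2-GLR ESCs to early), −0.5574 to 0.4429 for ALDH1A1 (early to late), −0.3068 to 0.1159 for Cyp26b1 and −0.9501 to 0.4192 for Cyp26a1 (EpiLCs to early), −1.272 to 0.626 for Aldh1a3 (early to late), and between species −1.621 to 0.2896 for ALDH1A1 and −0.4653 to 0.0427 for CYP26A1 (naïve to primed), −1.816 to 4.057 for ALDH1A1 and −2.972 to 3.395 for CYP26C1 (early to late). Against TMM, DESeq2 size factors moved the median of all genes by −0.105 from naïve to primed H9 ESCs and by 0.119 from primed H9 to RUES2-GLR ESCs, and upper quartile scaling moved it by 0.134 between these lines and by −0.104 between RUES2-GLR ESCs and early RA-gastruloids. The cause of these changes was not tested.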

Other observations

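The genes whose log2 CPM followed that of a member most closely are given as a description, with Pearson's r over samples that share their groups. For CYP26A1 they were IGFBP2 (r = 0.998), RNF122 (0.996) and LDLRAD3 (0.995) over 10 human samples, and for ALDH1A2 PALLD (0.993), BTG1 (0.99) and GLIS3 (0.988). Over 8 mouse samples they were Smarce1 (0.998), Epb41l5 (0.998) and Itsn1 (0.998) for Cyp26a1, and Hspa5 (0.997), Cited2 (0.996) and Tmem33 (0.995) for Aldh1a2. No gene was among the closest 3 in both species.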
